A study of Mus musculus with 2 samples.

Results

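The 10 genes described here encode transcription factors, and a transcriptional coactivator, of lymphoid cells: Ikzf1, Tcf3, Foxo1, Ebf1, Pax5, Bach2, Spib, Irf4, Pou2af1 and Ikzf3. They were chosen by name, with earlier results of these data known, and found on the array through the RefSeq accession of each probe. They had 15 probes among 27229 probes that could be named, and they are 10 of 20655 genes with a named probe. Of these probes 12 were well above background on both arrays, and they covered 9 of the 10 genes. Ikzf3 was not well above background on either array.

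The arrays measured total RNA of blood cells from mouse fetal liver at stage E13.5. Cells carried SoNar, a fluorescent protein that reports the balance of NADH and NAD+ in the cytosol, and were sorted into a population with a high and a population with a low SoNar signal (the F405/F488 ratio of the labels). The SoNar-high sample is labelled as strain C57BL/6 and the SoNar-low sample as C57BL, and neither label names a further allele or treatment. How the sensor was expressed, whether animals were pooled and which surface markers were used are not given in the sources used here. There was 1 array for each population, both with the same scan time in their headers, so the difference between them carries no replicate error and no test was possible.

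Blood cells acquire lymphoid fate through a stepwise network of such factors. Ikzf1 (Ikaros) and the E protein encoded by Tcf3 act early in lymphoid progenitors, Foxo1 and Ebf1 start the B cell programme, and Pax5 commits cells to it. Bach2, Spib, Irf4, Ikzf3 (Aiolos) and Pou2af1 act in developing and mature lymphocytes, and several of them are also used in plasmacytoid dendritic cells. The fetal liver, where red cells are the main product, is also the site where the first B cell progenitors of the embryo mature.

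Lymphoid factors were split in these arrays, with 5 of the 9 measured genes at least 2-fold lower in SoNar-high cells and none at least 2-fold higher. The 5 were Bach2 (4.72-fold lower), Spib (4.15-fold), Ebf1 (2.91-fold), Pou2af1 (2.19-fold) and Irf4 (2.03-fold). Foxo1, Ikzf1, Pax5 and Tcf3 were represented by probes that differed by less than 2-fold. In all, 10223 genes were measured on both arrays. The share of them that was at least 2-fold lower in SoNar-high cells was 4.44% (454 genes), and the share at least 2-fold higher was 5.28% (540 genes). Among the 8265 genes whose mean signal lay within the range of these 9 factors, 5.01% were at least 2-fold lower and 5.94% at least 2-fold higher. The median log2 difference (SoNar-high minus SoNar-low) of the 9 factors was -1.02, beside -0.08 over all measured genes, and 8 of the 9 were below 0, as were 5706 of all genes (55.8%). After normexp, another background correction, the median of the 9 was -0.33 and 4 were at least 2-fold lower. With the 75th percentile of detected probes alone, 3 were at least 2-fold lower. Under 4 of the other settings 7 of the 9 were below 0, and neither Pax5 nor Ikzf1 has a settled sign.

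**Figure D1:**
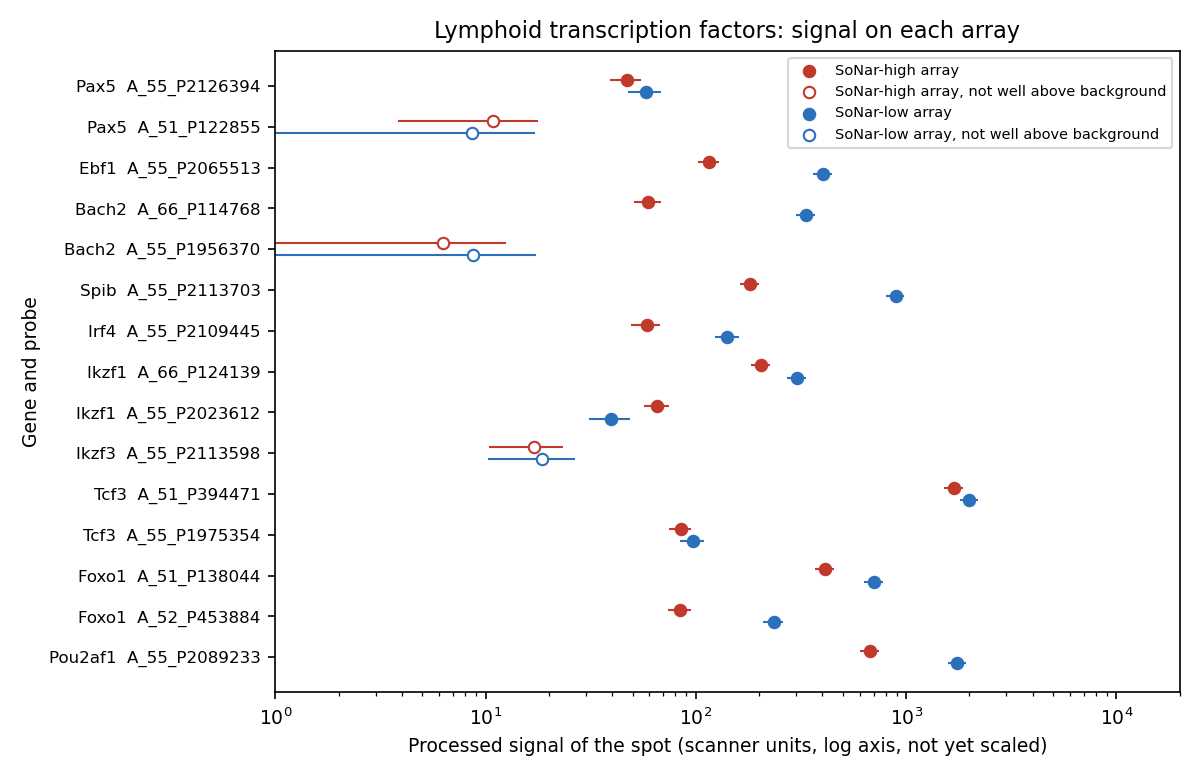
Processed signal of each of the 15 probes in SoNar-high (red) and SoNar-low cells (blue), in scanner units on a log axis and before scaling; horizontal bars are the scanner's own signal error for the spot, cut at 1 where they reach below it, and open circles are probes not well above background. The points of Bach2 (A_66_P114768), Spib and Ebf1 lie farthest apart, while both points of Tcf3 and of Pax5 lie close together.

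Every value of these 10 genes rests on 1 spot per array, with the error that the scanner software gives for that spot. That error covers the spot only and not the animals, the sorting or the labelling. Log2 differences were taken after dividing each signal by the 75th percentile of its array, which was 186.5 units for SoNar-high and 222.2 units for SoNar-low cells. A given signal therefore counts for slightly less in SoNar-low cells. Differences were taken within a probe, and a gene named as the brightest of its list is so by the signal of its probe, which also depends on the probe itself.

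The promoters of 9 of the 10 genes are in RefSeq's table for build GRCm38.p6, in 11 windows since Ebf1 and Ikzf1 have 2 starts each, and Ikzf3 was not in it. The 250 bases before each start were searched on both strands for 8 short motifs known for these factors. They were the octamer bound by the partners of Pou2af1 (ATGCAAAT), the Ebf1 palindrome (TCCC and GGGA with 2 free bases between them) and an E box of Tcf3 (CAGGTG). Next were the Spi box used by Spib (GAGGAA) and the Ets-Irf composite used by Spib or Spi1 with Irf4 (GGAA and GAAA with 2 free bases between them). The last were the Bach box (TGAGTCA), the Foxo box (GTAAACA) and the Ikzf box (TGGGAA). The Spi box and the composite share the letters GGAA and can overlap. A match occurred in 4 of the 11 windows. The share of all windows with any of the 8 motifs was not counted, and the most common single motif was in 23.3% of them. The count of 4 is therefore not read as a trait of these genes. The 150 bases before the start are printed for these 4, 5′ to 3′ on the strand of the gene, with the matches in capitals. They show which members carry a motif known for another member in that stretch.

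Bach2, chr4:32417285-32417434, plus strand: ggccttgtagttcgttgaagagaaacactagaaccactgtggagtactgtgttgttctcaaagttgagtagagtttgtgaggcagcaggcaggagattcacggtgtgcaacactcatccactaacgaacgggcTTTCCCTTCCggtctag

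Irf4, chr13:30749083-30749232, plus strand: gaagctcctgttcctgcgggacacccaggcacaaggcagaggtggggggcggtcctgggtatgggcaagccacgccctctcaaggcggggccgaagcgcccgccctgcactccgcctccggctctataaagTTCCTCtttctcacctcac

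Ebf1 (downstream start), chr11:44620078-44620227, plus strand: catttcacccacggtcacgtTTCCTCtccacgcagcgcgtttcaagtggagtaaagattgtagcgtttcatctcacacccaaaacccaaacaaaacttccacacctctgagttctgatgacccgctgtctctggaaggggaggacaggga

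Foxo1, chr3:52268187-52268336, plus strand: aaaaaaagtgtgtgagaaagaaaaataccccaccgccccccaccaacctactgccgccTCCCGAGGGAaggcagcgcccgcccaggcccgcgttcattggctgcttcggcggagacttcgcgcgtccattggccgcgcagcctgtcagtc

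In the Bach2 window the capitals are the Ets-Irf composite, read on the opposite strand, at positions -17 to -8 from the start. That motif was in 2.30% of the 32851 promoter windows of the table. In the Irf4 window (-19 to -14) and the Ebf1 window (-130 to -125) the capitals are the Spi box on the opposite strand, which 23.3% of all windows hold. The Ebf1 window also had an Ikzf box (-207 to -202), outside the printed stretch, a motif that 21.6% of all windows hold. In the Foxo1 window they are the Ebf1 palindrome (-92 to -83), which 0.779% of all windows hold. None of the motifs was found in the windows of Spib, Pou2af1, Pax5, Tcf3 or Ikzf1, or in the upstream window of Ebf1. The octamer, the E box, the Bach box and the Foxo box were in none of the 11 windows, against 1.60%, 17.2%, 4.46% and 3.17% of all windows. These matches describe letters in the reference and do not show binding.

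Bach2, a leucine zipper repressor that keeps myeloid genes low in lymphoid progenitors, had the most negative difference of the 9 measured genes, except after normexp, where Spib had -1.67 and Bach2 -1.60. Its probe A_66_P114768 gave a processed signal of 59.3 ± 8.69 (scanner error) in SoNar-high and 333 ± 34.1 in SoNar-low cells. The difference of -2.24 ± 0.26 ranked 5th from the most negative of 10223 genes. A further Bach2 probe, A_55_P1956370, read 6.26 and 8.68 and was not well above background on either array, so the difference rests on a single probe.

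Spib, an Ets factor of B cells and plasmacytoid dendritic cells, gave 180 ± 19.0 in SoNar-high and 892 ± 89.6 in SoNar-low cells. Its difference was -2.05 ± 0.21, the 9th most negative of all measured genes. The errors of the 2 spots left the signals far apart, as they did for Bach2.

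Ebf1, which starts B lineage specification, gave 116 ± 13.3 in SoNar-high and 402 ± 41.1 in SoNar-low cells. Its difference was -1.54 ± 0.22, ranking 58th from the most negative. Pax5, which acts after Ebf1, did not show the same difference, but its signal was dim on both arrays. Its brighter probe, A_55_P2126394, gave 46.9 ± 8.03 and 58.0 ± 10.3, and the scaled difference was -0.05 ± 0.36. The errors of the 2 spots overlap. Above local background this probe read 123 and 126, where negative control spots read 74.0 in SoNar-high and 63.0 in SoNar-low cells. Signals this close to background cannot show whether Pax5 differed as Ebf1 did. The other Pax5 probe, A_51_P122855, read 10.8 and 8.63 and was not well above background.

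Pou2af1, a coactivator that octamer-binding proteins recruit in B cells, gave 672 ± 67.5 in SoNar-high and 1752 ± 175 in SoNar-low cells, a difference of -1.13 ± 0.20. Under 4 of 9 other settings the difference was within 2-fold, down to -0.92 after a loess fit on mean signal. Irf4, which binds composite sites together with Spib or Spi1, gave 58.4 ± 9.10 and 141 ± 18.3. Its difference of -1.02 ± 0.29 lies at the 2-fold threshold within its own error. It was -0.33 after normexp background correction, -0.84 with the 75th percentile of detected probes alone, and -0.97 with scaling on the median of detected probes.

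Tcf3, whose E proteins pair with other helix-loop-helix factors, differed by less than its spot error. Probe A_51_P394471 gave 1689 ± 169 in SoNar-high and 1995 ± 200 in SoNar-low cells, and the scaled difference was 0.01 ± 0.20. The second probe, A_55_P1975354, gave 84.7 ± 10.4 and 96.4 ± 12.6, a difference of 0.07 ± 0.26. The probe pair differed by 0.05, the smallest gap among the 3 members with more than 1 measured probe. After normexp the difference of Tcf3 was 0.30, still within 2-fold.

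**Figure D2:**
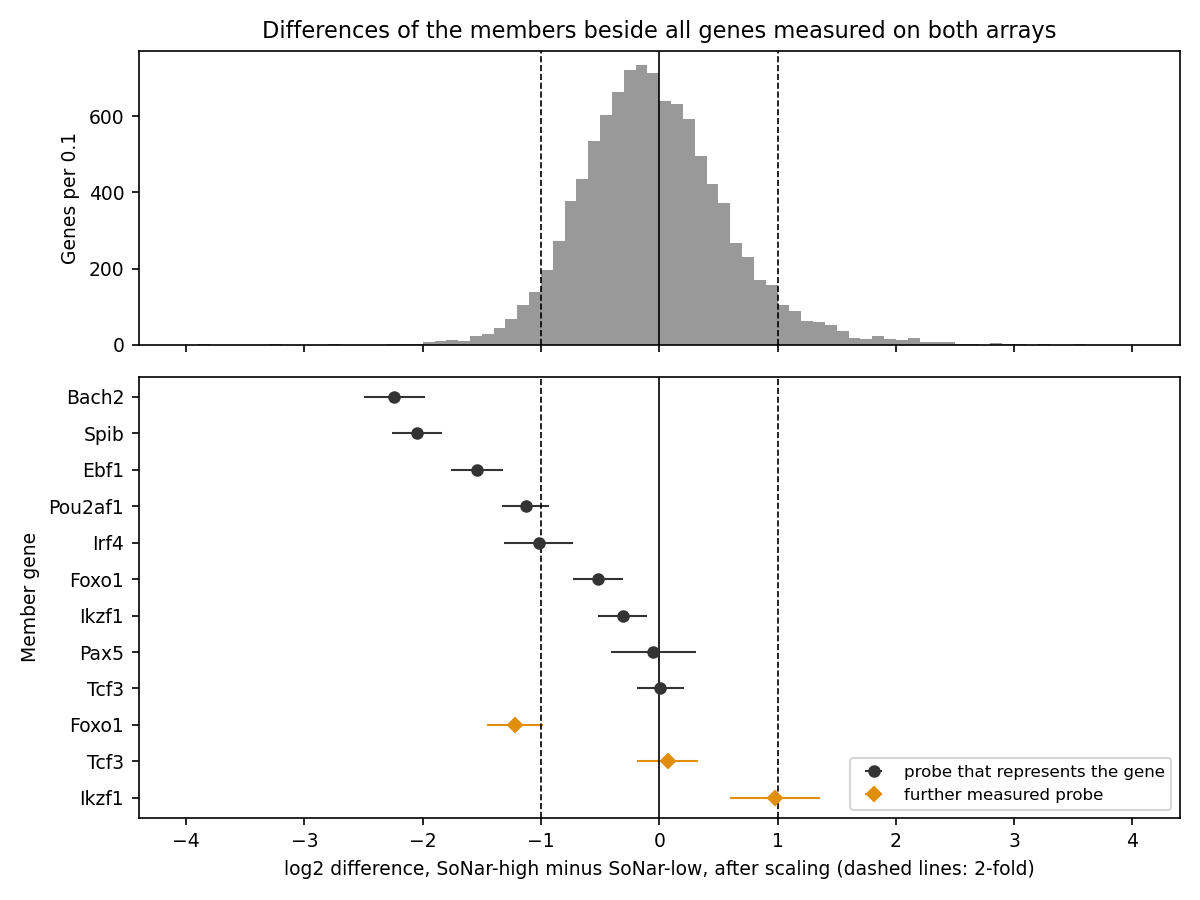
Top, the number of genes per 0.1 of log2 difference (SoNar-high minus SoNar-low) for all 10223 genes measured on both arrays; bottom, the measured probes of the lymphoid factors on the same axis, with the scanner error of the difference as bars and dashed lines at 2-fold. Bach2 (-2.24) and Spib (-2.05) lie in the thin left tail, Tcf3 (0.01) and Pax5 (-0.05) lie in the middle, and the further probes of Foxo1 and Ikzf1 lie apart from the probes that represent those genes.

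For Foxo1 and Ikzf1 the difference depended on the probe. Foxo1, a forkhead factor that activates Il7r and the recombinase genes, was represented by A_51_P138044, with 412 ± 41.7 in SoNar-high and 704 ± 71.2 in SoNar-low cells and a difference of -0.52 ± 0.21. Its dimmer probe, A_52_P453884, gave 84.3 ± 10.5 and 234 ± 24.8, a difference of -1.22 ± 0.24 that is past 2-fold. Both probes were lower in SoNar-high cells and differed by 0.70 ± 0.31 from each other.

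Ikzf1, the zinc finger factor Ikaros, had probes that pointed in opposite directions, as did 37.9% of the 2021 genes with more than 1 measured probe. The brighter, A_66_P124139, gave 205 ± 21.4 and 302 ± 31.4, a difference of -0.31 ± 0.21. The dimmer, A_55_P2023612, gave 65.6 ± 9.05 in SoNar-high and 39.7 ± 8.77 in SoNar-low cells, a difference of 0.98 ± 0.38. The gap of 1.29 ± 0.43 between them compares with a median gap of 0.41 over those 2021 genes, of which 3.96% had a gap as large. No direction is given for Ikzf1, since the median over its probes was 0.33. Ikzf3, its relative in maturing B cells, gave 16.9 and 18.5, not well above background on either array, and received no fold.

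The related genes were described by counts, as lists of the members' paralogues, their partners, other lymphoid factors, B lineage genes, lymphoid signals and cell markers. Several genes, among them Il7r, Flt3, Ly6d and Tcf4, stand on 2 lists. The plot of list differences shows them beside the 9 factors. Each count below stands beside the shares over all measured genes, 4.44% at least 2-fold lower and 5.28% at least 2-fold higher. Fewer lymphoid cells and less RNA per cell cannot be told apart in RNA of a bulk population.

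**Figure D3:**
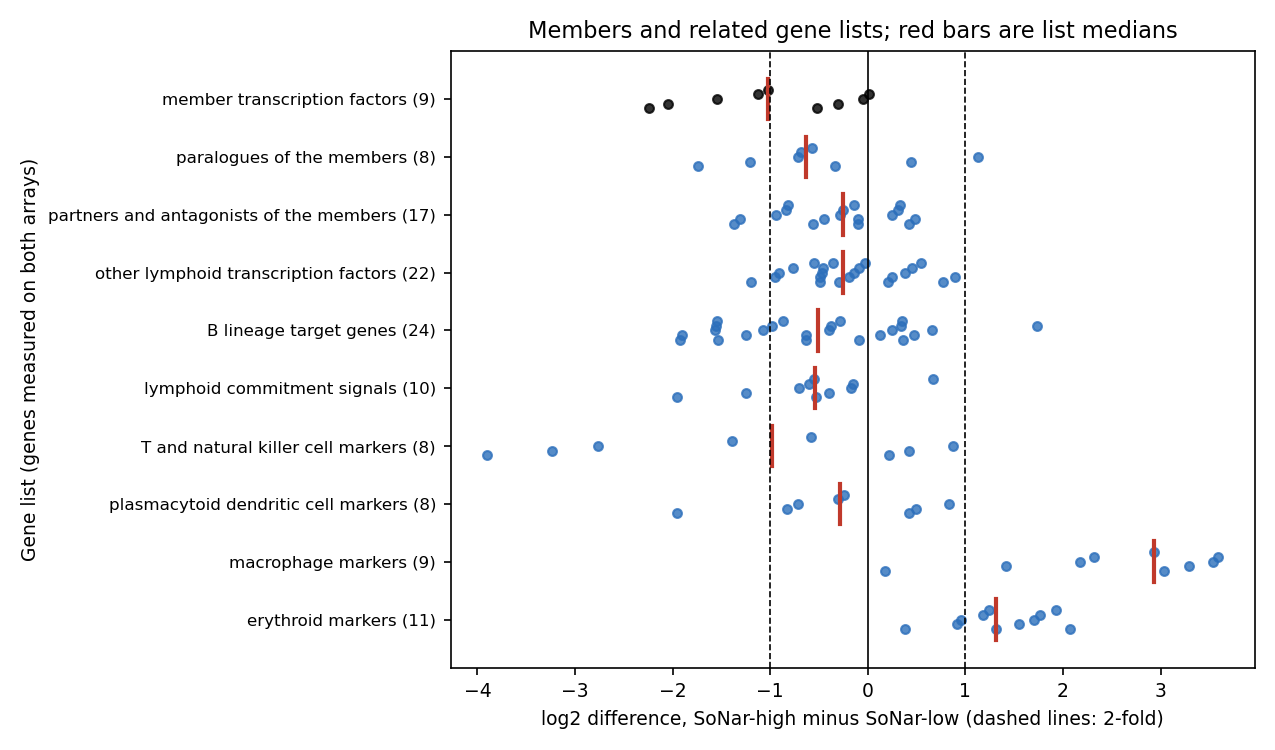
Log2 difference (SoNar-high minus SoNar-low) of each gene measured on both arrays, in the lymphoid factors (black) and 9 related lists (blue), with the number measured in brackets, list medians as red bars and dashed lines at 2-fold. The median of the lymphoid factors (-1.02) and that of T and natural killer markers (-0.98) are both below 0 (-0.33 and -0.81 after normexp), and macrophage (2.93) and erythroid markers (1.31) lie on the other side of 0.

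Among the 16 paralogues of the members, 8 were measured, of which 2 were at least 2-fold lower and 1 at least 2-fold higher, with a median of -0.63. Ikzf2 (Helios), a relative of Ikzf1, gave 48.8 in SoNar-high and 194 in SoNar-low cells, a difference of -1.74. Irf8, a relative of Irf4 used by B cells and by monocyte and dendritic progenitors, gave 1079 and 2971, a difference of -1.21. Both Irf genes were thus lower in SoNar-high cells.

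Spi1 and Spic, the Spi-family relatives of Spib, had the opposite sign. Spi1 (PU.1), a factor of myeloid and B cell progenitors, gave 122 in SoNar-high and 66.4 in SoNar-low cells, a difference of 1.13. Under other scalings it was between 0.58, after normexp, and 1.31, so its place past 2-fold was not kept, while its sign was. Spic, a factor of red pulp macrophages, gave 103 on the SoNar-high array and was not well above background on the SoNar-low array (8.69), which gives at least 3.31-fold higher (1.75-fold after normexp). The macrophage markers, of which 8 of 9 measured were at least 2-fold higher in the same array, moved with Spi1 and Spic, and their part in these values was not tested.

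The remaining measured paralogues were within 2-fold. Of the E protein genes, Tcf4 had -0.72 and Tcf12 -0.57 (its other probe -0.59), whereas Tcf3 had 0.01. Ikzf5 had -0.68 (its other probe -0.11), Bach1, the broadly expressed relative of Bach2 that senses heme, had -0.34, and Ebf4 had 0.44. Pax2, Pax8, Ebf2, Ebf3, Ikzf4, Foxo3 and Foxo4 were not well above background on either array.

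Partners and antagonists of the members were mostly within 2-fold. Of 18 genes, 17 were measured, 2 (11.8%) were at least 2-fold lower and none at least 2-fold higher, with a median of -0.25. Id2, an inhibitor that binds E proteins and promotes natural killer fate, gave 698 in SoNar-high and 2144 in SoNar-low cells, a difference of -1.37. Maff, a small Maf protein of the kind that pairs with Bach2, had -1.31, or -0.95 and within 2-fold after normexp. The other small Maf genes of the list were above 0, Mafk with 0.42 and Mafg with 0.25 (3 probes between 0.25 and 1.41). Pou2f1, an octamer-binding partner of Pou2af1, had -0.94, with its other probe at 0.54. Hdac1, the brightest of the list, had -0.45, with 3 probes between -0.59 and -0.31.

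Among 30 other lymphoid transcription factors, 22 were measured and 1 (4.5%) was at least 2-fold lower, a share near the 4.44% of all genes. Their median was -0.25, 15 of the 22 were below 0, and none was at least 2-fold higher. Tox, a factor of T and innate lymphoid cells, was the gene at least 2-fold lower. It had -1.20 from signals of 32.8 and 89.7, or -0.48 after normexp. Sox4 had -0.95 (its other probe -0.27), and Myb, the brightest, had -0.91. On the other side of 0, Zbtb7b had 0.89 (its other probe 1.12, and up to 1.10 under other scalings) and Notch1 0.77. Gata3, a factor of T and innate lymphoid cells, was detected in SoNar-low cells alone, at least 2.31-fold higher there (1.33-fold after normexp). Aff3 had no named probe.

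B lineage genes, many of them known targets of Ebf1 and Pax5, had 8 of 24 measured genes (33.3%) at least 2-fold lower and 1 at least 2-fold higher, with a median of -0.51. Vpreb2 and Vpreb1, near-identical surrogate light chain genes whose probes may share transcripts, had -1.92 and -1.90. Cd38, a surface enzyme that uses NAD and is found on many blood cells, was the gene at least 2-fold higher, with 259 in SoNar-high and 93.1 in SoNar-low cells (1.73). Rag2, a recombinase gene that Foxo1 activates, was detected in SoNar-low cells alone, at least 3.11-fold higher there (1.53-fold after normexp). Cplx2, the brightest, had -0.09, a value whose sign changed with the scaling (up to 0.15), and 4 probes between -1.57 and -0.09.

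The lymphoid commitment list had 2 of 10 measured genes at least 2-fold lower and none higher, with a median of -0.54. Ly6d, a marker of B-biased lymphoid progenitors, gave 87.1 and 402, a difference of -1.95. Il7r, the interleukin-7 receptor chain that Foxo1 activates and that early B cells need, gave 128 and 362, a difference of -1.25, or -0.69 after normexp. Stat5a, which relays that signal, had -0.70, and Stat5b, the brightest, had -0.17, with its sign depending on the scaling and its other probe at 1.07.

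Markers of other cell types differed between the same arrays. The medians of the B lineage (-0.51) and of the T and natural killer lists (-0.98) lay on the side of the lymphoid factors, and those of macrophage (2.93) and erythroid markers (1.31) on the other. Summed over each list's genes, in units of the array's 75th percentile, B lineage genes reached 163 in SoNar-high and 219 in SoNar-low cells, and T and natural killer markers 13.9 and 39.2. Plasmacytoid dendritic cell markers reached 22.4 and 30.1, macrophage markers 105 and 39.1 and erythroid markers 287 and 142. The 10 factors themselves reached 18.5 and 29.7. The sums include list genes with a probe that were not well above background on both arrays, Ikzf3 among them. Probes differ in brightness, so a few bright ones can set most of such a sum. The part of these cell types in the differences of the lymphoid factors was not tested.

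T and natural killer markers had 4 of 8 measured genes at least 2-fold lower and none at least 2-fold higher (median -0.98). Of the 8, 5 were below 0. Among the T cell markers, Lck (-1.39) and Zap70 (-0.58) were below 0, while Cd3e (0.87) and Cd4 (0.42) were above it. Gzma had -3.90, Klrd1 -3.24 and Gzmb -2.76 (-3.60, -2.27 and -1.85 after normexp), whereas Nkg7, the brightest, had 0.22. Il2rb (at least 5.74-fold, 2.36-fold after normexp), Ifng (at least 4.61-fold, 2.43-fold after normexp) and Cd3g (at least 2.18-fold, 1.40-fold after normexp) were well above background in SoNar-low cells alone. Cd3d was so in SoNar-high cells alone (at least 2.44-fold, 1.54-fold after normexp). Eomes (35.8 in SoNar-high and 21.2 in SoNar-low cells, at least 1.15-fold) was also well above background in SoNar-high cells alone. Prf1 carried the same mark, but its signals were 35.2 and 41.0. After scaling they were 1.02-fold apart, so no direction is given for Prf1. The natural killer markers Klrb1c, Ncr1 and Tbx21 were not well above background on either array.

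Plasmacytoid dendritic cells share Spib, Tcf4 and Irf8 with B cells. Of their markers, 1 of 8 measured genes was at least 2-fold lower, Ly6d. The median was -0.28, and 5 of the 8 were below 0. Ccr9 had 0.83, Cox6a2 -0.83 and Tcf4, the brightest, -0.72. Tlr9 (0.49) and Tlr7 (0.42) were above 0, as was Ccr9. Siglech, the defining surface marker, is named after its value was seen: its brighter probe had -0.31 and its dimmer probe -2.21.

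Macrophage markers had 8 of 9 measured genes at least 2-fold higher (median 2.93), led by Marco (3.59), C1qa (3.54) and C1qc (3.29). After normexp these 3 had 3.20, 2.30 and 3.01, and C1qa fell below Cd5l (2.50) and Vcam1 (2.47). Csf1r, the brightest, had 0.18, with its 3 probes between -0.09 and 1.02. Timd4 (at least 8.07-fold, 3.43-fold after normexp) and Axl (at least 6.35-fold, 2.71-fold after normexp) were well above background in SoNar-high cells alone. Erythroid markers had 8 of 11 measured genes at least 2-fold higher (median 1.31), led by Trim10 (2.07), Epb42 (1.93) and Ermap (1.76, with 3 probes between 0.49 and 1.76), and Hba-a1, the brightest, had 0.91. The count was 6 after normexp, where Epb42 had 1.11, and 10 with the 75th percentile of detected probes alone.

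**Figure D4:**
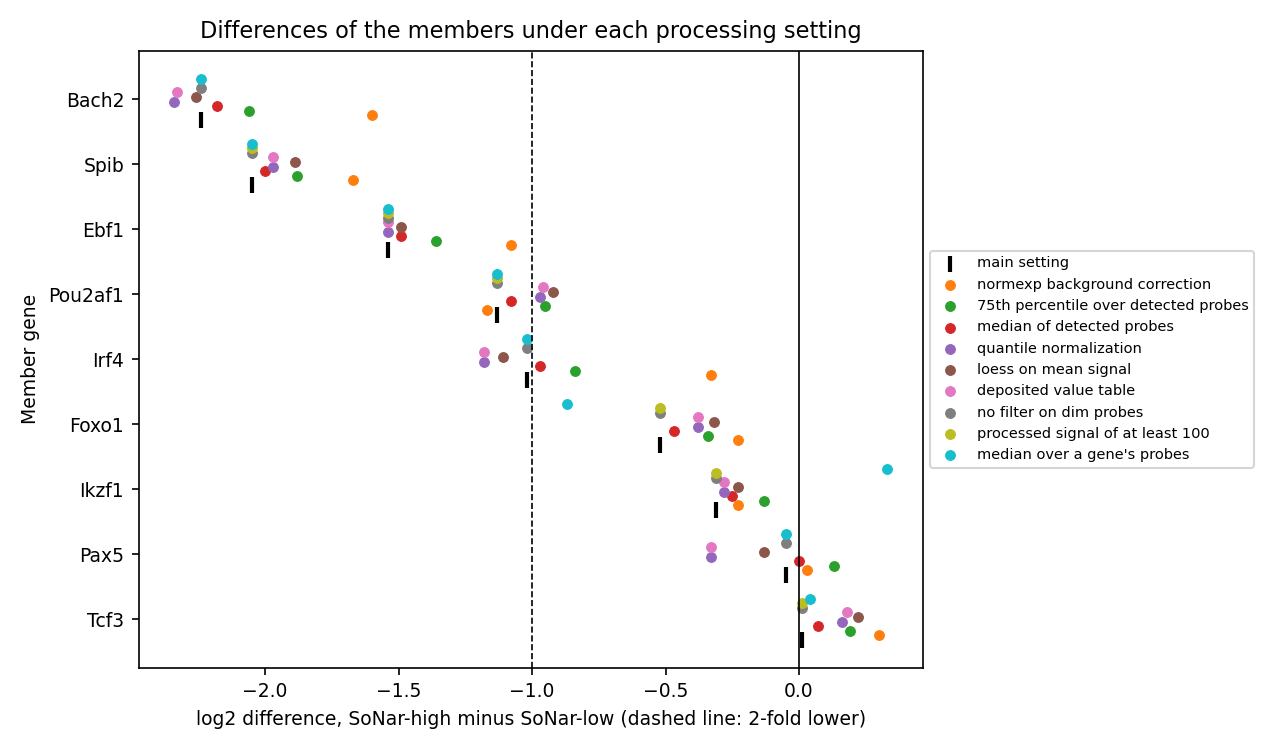
Log2 difference (SoNar-high minus SoNar-low) of the 9 measured factors under the main setting (black bars) and 9 other processing settings (coloured points), with a dashed line at 2-fold lower. Bach2, Spib and Ebf1 stay left of the dashed line under every setting that gave them a value, Pou2af1 and Irf4 lie on both sides of it, and Tcf3 stays at or above 0.

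The plot by processing setting shows how far each factor moved with the processing. Bach2 lay between -2.34 and -1.60 under its 8 other settings, Spib between -2.05 and -1.67 and Ebf1 between -1.54 and -1.08 under their 9. Pax5 was negative under 5 of 8 settings and positive under 2 (-0.33 to 0.13), so no direction is given for it. Tcf3 was between 0.01 and 0.30 under all 9, and Foxo1 between -0.87 and -0.23.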

How the data were processed

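The authors deposited spot intensities from Agilent Feature Extraction: a background-subtracted processed signal with its error, and median spot and background signals, per the file headers. The headers name version 11.0.1.1 and the submitters' processing notes 9.1. The deposited value table holds the authors' log2 values. No source used here gives their normalization. The sorted columns differed by at most 0.0005, so both had been brought to the same distribution, as quantile normalization does. The value table and quantile normalization are therefore not separate checks, and both gave -0.33 for Pax5 and -1.18 for Irf4. The differences between columns correlated with those of the scanner files at 0.966 across measured probes.

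Control spots and outlier spots (225 for SoNar-high and 135 for SoNar-low cells) were left out. The scanner marked 49.4% of 43020 non-control spots, outliers included, as well above background in SoNar-high and 42.4% in SoNar-low cells, and none as saturated. The log2 processed intensity minus the array's 75th percentile was averaged over spots of a probe. A probe was called measured when the majority of its spots passed that mark on both arrays, and the measured probe of highest mean signal stood for its gene. With 1 array per group no test was run, and genes were counted from 2-fold. For a gene measured on 1 array, the bound sets its bright value against the dim value, or against the lowest detected value of the dim array where that is higher. The error of a difference combines both arrays' relative scanner errors.

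Probes were named through RefSeq accessions in a gene table of assembly GRCm38.p6, and 12191 of 39420 probes stayed unnamed. That table served for names and promoters alone, since the array design is on mm9. The counting rule was tested on simulated data whose differences lay far from the threshold, so the test does not bear on genes near 2-fold. All members were named, with all paralogues that have a probe and, in each other list, the 3 genes with the largest absolute difference, the brightest gene, and genes detected on 1 array whose bound reached 2-fold. Further genes, among them Siglech, Mafk, Mafg and several T and natural killer markers, were named after their values were seen. The members and lists were chosen with earlier results of these data known. Alternatives were normexp (offset 50, on median spot signals), 3 other scalings, loess (span 0.3), the value table, other filters and probe rules, and a 3-fold threshold. Python 3.11.15 and limma 3.58.1 in R 4.3.3 were used.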

Additional observations from a re-analysis of the deposited data

How the results depend on the processing

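No paired analysis was possible because each group has 1 array. Under the 10 alternatives the count of factors at least 2-fold lower, 5 in the main setting, was 3 with the 75th percentile taken over detected probes, 3 with processed signals of at least 100 (which left 6 factors, without Bach2, Irf4 and Pax5) and 2, Bach2 and Spib, with a 3-fold threshold. It was 4 or 5 under the others, and no factor was at least 2-fold higher under any of them. The median difference, -1.02 in the main setting, was -0.33 after normexp, -0.84 with the 75th percentile over detected probes, -0.77 without the filter on dim probes (10 factors) and -0.82 with processed signals of at least 100. Between -1.02 and -0.92 lay the medians under the other 5 settings. A value counted as moved past 0.15, the median SD between spots of a difference for 94 probes printed 10 times. Normexp was run on median spot signals above local background, a scale on which negative control spots still read 74.0 in SoNar-high and 63.0 in SoNar-low cells, where Irf4 read 132 and 178. On it Bach2 read 135 in SoNar-high cells, and normexp moved Irf4 to -0.33 and Bach2 to -1.60. The share of genes at least 2-fold lower was 2.22% with the 75th percentile over detected probes (817 higher and 227 lower) and 2.51% after normexp (250 higher and 257 lower).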
